A study of Caenorhabditis elegans with 4 samples.

Results

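Histone genes of the nematode Caenorhabditis elegans were examined class by class in RNA-seq libraries of whole larvae. Members were the protein-coding genes whose symbol is his- followed by a digit, found by matching the RefSeq transcript accessions of the deposited table to WBcel235 gene symbols. Of the 72 annotated genes with such a symbol, whatever their type, 70 were protein-coding and had a value, among 41602 genes in all. The remaining genes, his-42 and his-73, were not analysed here. A dve-1 mutant carrying the allele uf171 was set against wild type, with 2 libraries per genotype and 4 in all. The product of dve-1, a homeobox transcription factor, is best known for its role in the response to mitochondrial stress. All animals were kept at 25 degrees on the bacterial strain OP50, and about 1200 synchronized larvae went into a sample. Sample names place the animals at L4, the stage before adulthood, but the collection protocol mentions L1 larvae, and the stage is given here as labelled. Separate cultures are not stated for the libraries, so p-values reflect the spread among these 4 libraries alone, and that spread may be technical.

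Core histones H2A, H2B, H3 and H4 form the protein spool of the nucleosome, around which DNA is wrapped, and linker histone H1 binds the DNA between nucleosomes. Most core genes of animals are copied in arrays and are transcribed when cells replicate their DNA, and in most animals their mRNAs end in a stem-loop in place of a poly(A) tail. A smaller number of genes encode replacement variants, such as H3.3, which are deposited outside replication and whose mRNAs are commonly polyadenylated. Whether the libraries were selected for poly(A) RNA is not given in the sources used here, and such a selection would act differently on these groups. In bulk samples, fewer cells of a type and less RNA per cell cannot be told apart.

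The 70 genes held 16 H2A, 16 H2B, 14 H3 and 16 H4 genes, 7 variant or linker genes and his-39, whose model encodes 67 residues and which was left without a class. Values were FPKM, fragment numbers scaled by transcript length and by sequencing depth, and the depth itself is unknown. Many copies carried exactly the same FPKM in all 4 libraries, such as his-9, his-13 and his-25, and such copies are described together as a value group, which gave 51 groups. Near-identical copies share fragments, so the division of fragments among copies is uncertain and neighbouring groups are not independent of each other. By the first annotated model of each gene, there were 2 kinds. All members of the H2A and H3 classes, 15 of 16 H2B and 15 of 16 H4 genes, his-39, his-69 and his-70 had a single exon and no annotated untranslated region, and 7 genes had introns and annotated untranslated regions: his-24, his-35, his-37, his-41, his-71, his-72 and his-74. The H2A gene his-57 has 3 models, and the others reach beyond that single exon.

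Whole-library differences were modest. The median log2 value of the tested genes lay -0.09 and 0.08 from the mean of the 4 medians in mutant replicates 1 and 2, against 0.10 and -0.09 in wild type replicates 1 and 2. dve-1 itself stood at 22.98 and 21.1 FPKM in the mutant, against 14.2 and 13.9 FPKM in wild type (log2 fold change 0.62, limma adjusted p = 0.874). The nature of the uf171 change is not given in the labels, so this level does not check the genotypes.

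Genes with introns and single-exon core genes differed widely in level. The 7 genes with introns lay between 87.7 and 627 FPKM, whereas no single-exon core gene exceeded 51.2 FPKM in any library. The single-exon variant gene his-70 reached into the range of the genes with introns, at 68.5 to 104 FPKM. his-41, an H2B gene, stood at 528 and 424 FPKM in dve-1 mutant replicates 1 and 2, against 577 and 627 FPKM in wild type replicates 1 and 2. his-37, an H4 gene, stood at 364 and 313 FPKM in the mutant, against 412 and 454 FPKM in wild type. These genes lie beside his-35, an H2A variant gene, in a cluster of 3 on chromosome V (9544659 to 9547607, WBcel235). his-41 alone held 75.5% and 74.5% of the summed H2B FPKM in the mutant libraries, against 74.5% and 75.8% in wild type. his-37 held 73.1% and 71.9% of the summed H4 FPKM in the mutant, against 70.6% and 71.2% in wild type. The class sums of H2B and H4 therefore mainly follow 1 gene each. An exon of his-37 overlaps the antisense gene nstp-10 and an exon of his-41 overlaps C50F4.6 on the same strand, and strandedness of the libraries is not stated, so their values may include fragments of these neighbours.

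**Figure D1:**
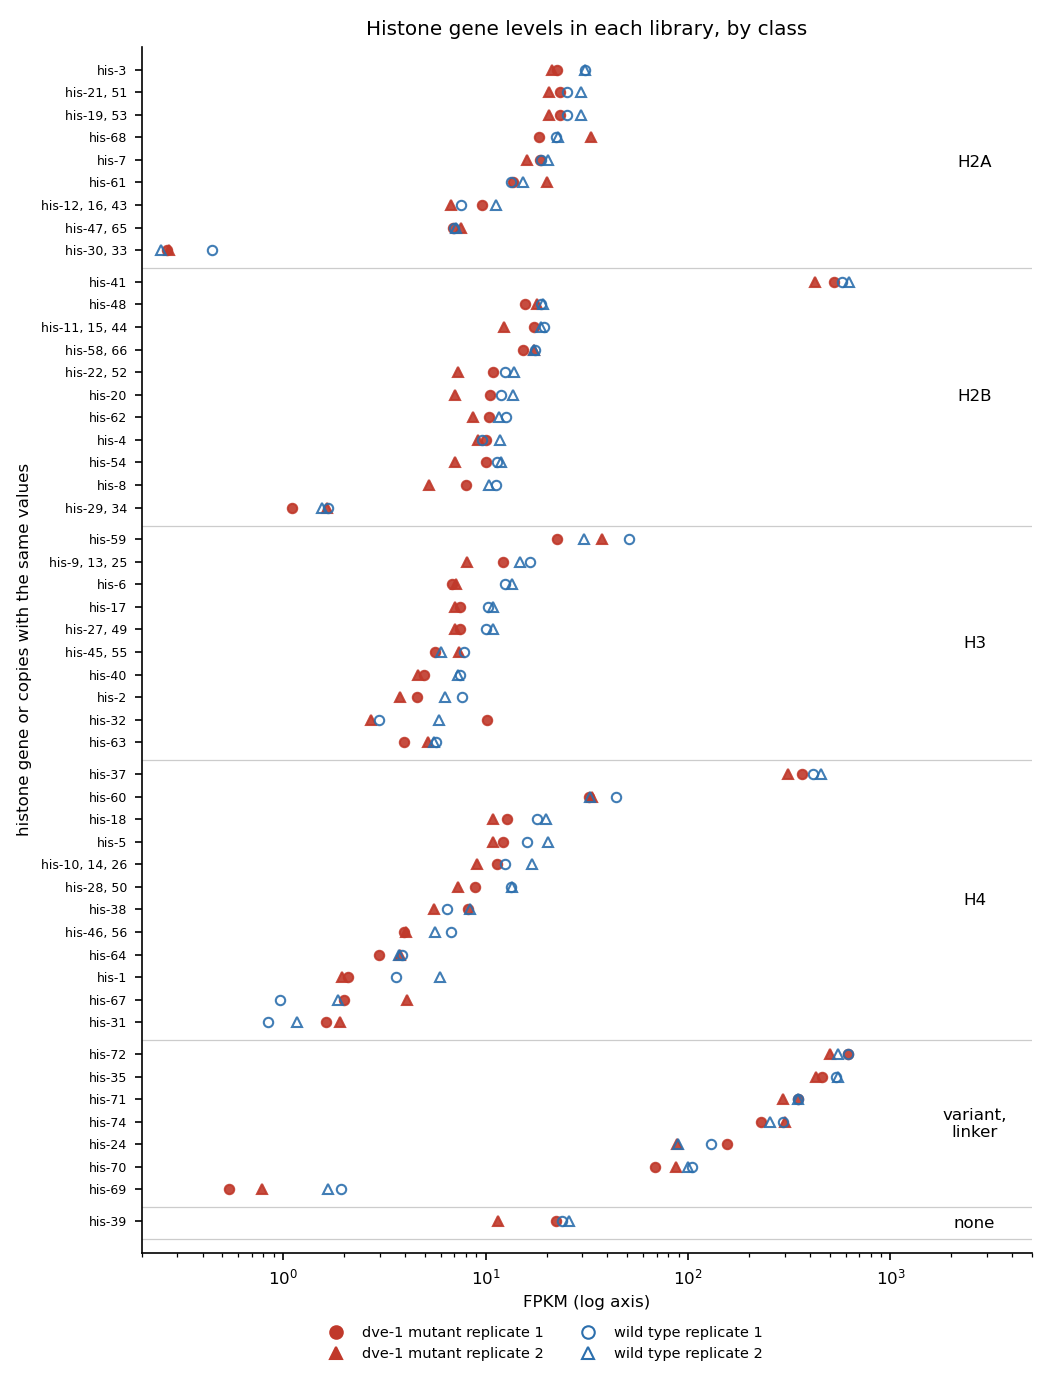
Each row is a histone gene, or copies with identical values, and the horizontal axis is FPKM on a log scale, with 1 symbol per library (filled red, dve-1 mutant; open blue, wild type). Rows are grouped by class and ordered by mean level, and his-57, listed at 0, is not drawn; his-41 and his-37 stand above the single-exon genes of their class.

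Mutant values of histone genes were mostly below those of wild type, but no gene passed the test on its own. Of 70 genes, 67 reached 1 FPKM in at least 2 libraries and were tested, in 49 value groups. his-30 and his-33 stayed between 0.25 and 0.446 FPKM, and his-57 was listed at 0 in all libraries. By sign, 42 of 49 groups were lower and 7 higher in the mutant, where 53.8% of all 14652 tested genes and 54.7% of tested protein-coding genes were lower. Both mutant libraries lay below both wild type libraries in 31 groups (63.3%) and above them in 2 groups, his-31 and his-67, against 16.2% and 11.9% of all tested genes and 16.3% and 11.4% of protein-coding genes. his-31 and his-67 had only 1 wild type library each at or above 1 FPKM and so passed the filter on low values through the mutant libraries. Among the 31 lower groups, his-69 passed it only through the wild type libraries. With at least 1 FPKM in all 4 libraries, 30 groups were lower without overlap. With log2 values centred on each library's median, the 31 groups became 20, against 14.6% of all genes. The median log2 fold change over the 49 groups was -0.33, where that of all tested genes was -0.02. With limma, 0 histone genes had an adjusted p under 0.05, against 0.13% of all tested genes. Unadjusted limma p was under 0.05 in 6 of 49 groups, his-69 among them, against 4.6% of all genes. Mutant replicate 2 was the lowest library in 31 groups and mutant replicate 1 in 15, and wild type replicates 1 and 2 were the highest library in 19 and 22 groups. Of the 49 groups, 35 were lower in every fit that left out 1 library, 2 were higher in every one, and 12 changed sign in some fit.

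**Figure D2:**
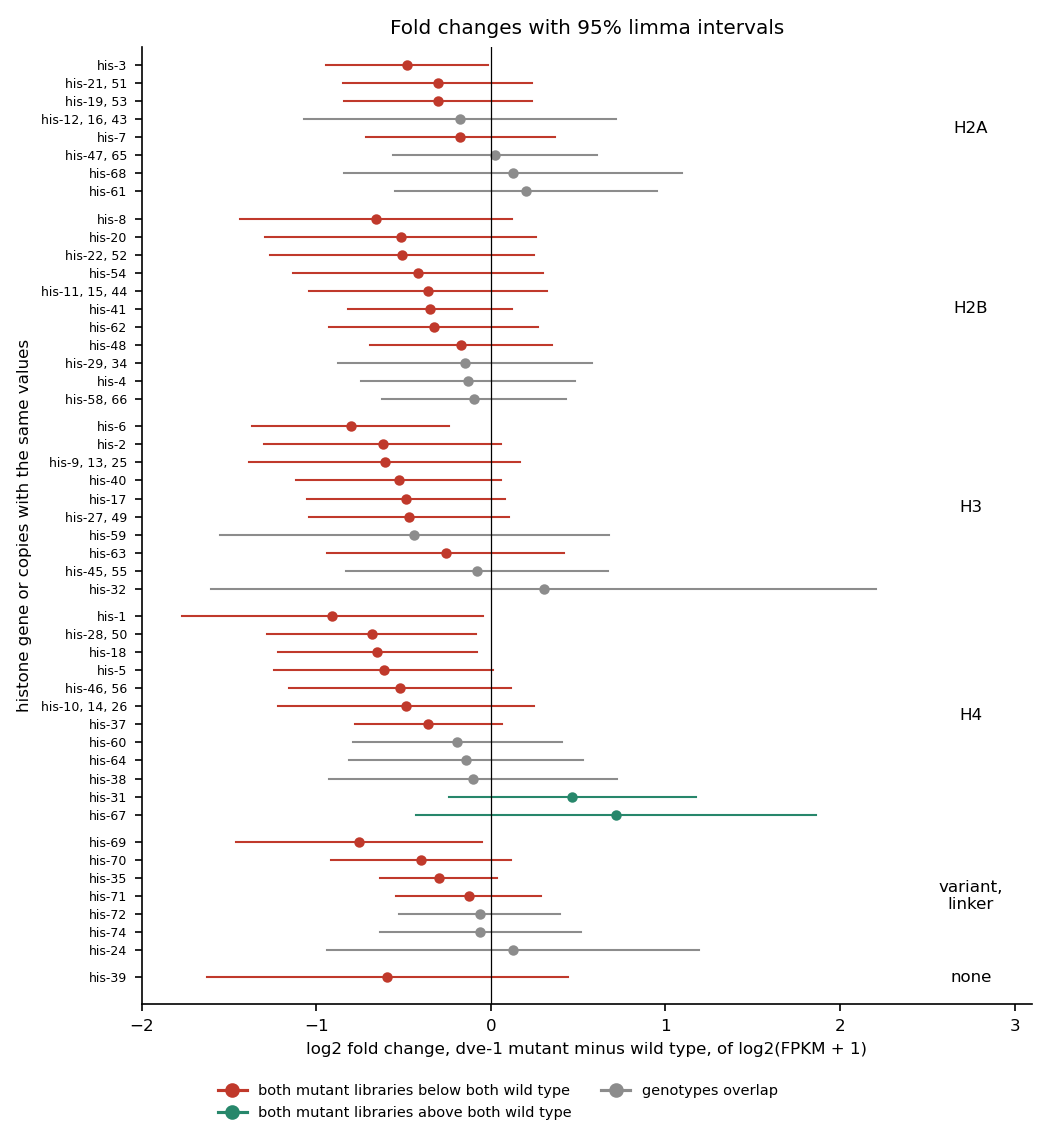
Points are differences in mean log2(FPKM + 1) between the dve-1 mutant and wild type, and bars are 95% limma intervals, for the 49 tested value groups by class. Red marks groups whose mutant libraries both lay below wild type, green both above, and grey overlap; the points of 42 groups lie left of 0, and most intervals cross it.

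H3 proteins carry many of the known regulatory marks on their tails, and the H3 class had a median log2 fold change of -0.48 over 10 value groups, of which 9 were lower by sign and 7 had genotypes that did not overlap. Among all tested genes, 16.2% were lower without overlap. The summed FPKM of the 14 genes was 123 and 121 in the mutant libraries, against 183 and 158 in wild type, a mean of 122 ± 1.69 against 171 ± 17.6 FPKM (SD, n = 2 each) and a ratio of 0.716. his-6 (F45F2.13; chromosome V, 8534567 to 8534977 on the minus strand) had the smallest p of all histone genes. It stood at 6.82 and 7.17 FPKM in the mutant, against 12.4 and 13.5 FPKM in wild type, which corresponds to about 25.5 and 26.2 fragments in the mutant and 47.7 and 53.7 fragments in wild type. The groups did not overlap, and the log2 fold change of -0.80 (SE 0.20, 95% interval -1.36 to -0.24) had a limma adjusted p of 0.717. his-2 stood at 4.59 and 3.77 FPKM in the mutant, against 7.61 and 6.29 FPKM in wild type (log2 fold change -0.62, limma adjusted p = 0.9995). his-9, his-13 and his-25, a set of identical copies on chromosome II, each stood at 12.2 and 8.07 FPKM in the mutant, against 16.6 and 14.8 FPKM in wild type.

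Within H3, the gene with the highest level did not separate the genotypes. his-59 stood at 22.6 and 37.4 FPKM in the mutant, against 51.2 and 30.8 FPKM in wild type, and the genotypes overlapped. his-32 was the H3 gene with the highest log2 fold change, 0.30, and read 10.2 and 2.72 FPKM in the mutant, against 2.98 and 5.88 FPKM in wild type. The log2 fold change was -0.49 without mutant replicate 1 and -0.09 without wild type replicate 1. The remaining H3 groups, his-17, his-27 with his-49, his-40, his-45 with his-55 and his-63, had log2 fold changes between -0.53 and -0.08.

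H4 pairs with H3 in the nucleosome, and its genes had a median log2 fold change of -0.42 over 12 value groups. Of these, 10 were lower by sign, 7 lower with genotypes that did not overlap and 2 higher without overlap. The shares of all tested genes without overlap were 16.2% lower and 11.9% higher. The summed FPKM of the 16 genes was 498 and 435 in the mutant, against 584 and 637 in wild type, a ratio of 0.764. Without his-37, the sum was 134 and 122 FPKM in the mutant, against 172 and 183 FPKM in wild type. The 2 H4 groups with the smallest p lay in the same cluster of chromosome V. his-28 and his-50, identical in value, stood at 8.85 and 7.27 FPKM in the mutant, against 13.4 and 13.6 FPKM in wild type (log2 fold change -0.68, SE 0.21, limma adjusted p = 0.942). his-18 stood at 12.7 and 10.8 FPKM in the mutant, against 18.02 and 19.97 FPKM in wild type (log2 fold change -0.65, SE 0.20, limma adjusted p = 0.942). Both mutant libraries lay below both wild type libraries in each of these genes. his-37 itself had a log2 fold change of -0.36 (SE 0.15, limma adjusted p = 0.9995).

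The H4 genes at the bottom of the range rested on few fragments and went both ways. his-1 stood at 2.09 and 1.96 FPKM in the mutant, against 3.63 and 5.94 FPKM in wild type, about 4.2 and 3.9 fragments in the mutant and 7.6 and 12.8 in wild type. Its log2 fold change of -0.91 was the lowest of all histone genes. his-67, on chromosome I, had the highest, 0.72, with 2.01 and 4.09 FPKM in the mutant, against 0.968 and 1.88 FPKM in wild type. his-31 stood at 1.63 and 1.92 FPKM in the mutant, against 0.847 and 1.17 FPKM in wild type, at most 3.8 fragments in any library.

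H2B genes were lower by sign in all 11 value groups, 8 of them with genotypes that did not overlap, and their median log2 fold change was -0.35. Over all tested genes, 16.2% were lower without overlap. With median-centring, the genotypes overlapped in several of the 8, his-41 among them. The summed FPKM of the 16 genes was 699 and 569 in the mutant, against 775 and 827 in wild type, a ratio of 0.792. Without his-41 it was 171 and 145 FPKM in the mutant, against 197 and 199.98 FPKM in wild type. his-8 had the smallest p of the class, with 7.99 and 5.24 FPKM in the mutant, against 11.2 and 10.4 FPKM in wild type (log2 fold change -0.66, SE 0.28, limma adjusted p = 0.9995). Exons of his-8, his-4, his-20, his-54 and the H2A gene his-16 overlap non-coding genes on the other strand. his-41 had a log2 fold change of -0.35 (SE 0.17), which was -0.19 without mutant replicate 2. his-58 and his-66, identical in value, had the H2B fold change nearest to 0, with 15.2 and 17.4 FPKM in the mutant, against 17.6 and 17.3 FPKM in wild type. Mutant replicate 2 was the lowest library in 8 of the 11 groups.

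H2A, the partner of H2B, was the core class with the median nearest to 0. Its median log2 fold change was -0.18 over 8 tested value groups, with 5 lower and 3 higher by sign and 4 lower without overlap. The share lower without overlap was 16.2% over all tested genes. With median-centring, only his-3 of the 4 stayed apart. The summed FPKM of the 16 genes was 210 and 209 in the mutant, against 224 and 256 in wild type, a ratio of 0.872. his-3, the H2A gene with the highest mean, stood at 22.7 and 21.3 FPKM in the mutant, against 31.1 and 30.9 FPKM in wild type, about 74 and 68 fragments in the mutant and 103.7 and 107.8 in wild type. The replicates of each genotype lay close together, and limma gave a log2 fold change of -0.48 (SE 0.16) with an adjusted p of 0.9995. his-21 and his-51 stood at 23.4 and 20.7 FPKM in the mutant, against 25.3 and 29.6 FPKM in wild type. his-61 ran the other way, at 13.7 and 20.01 FPKM in the mutant, against 13.4 and 15.2 FPKM in wild type, and its log2 fold change of 0.20 was -0.06 without mutant replicate 2. his-68 read 18.3 and 33.4 FPKM in the mutant, against 22.3 and 22.8 FPKM in wild type, so the mutant libraries lay on either side of wild type. Whether the classes differ from each other in their shift was not tested.

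**Figure D3:**
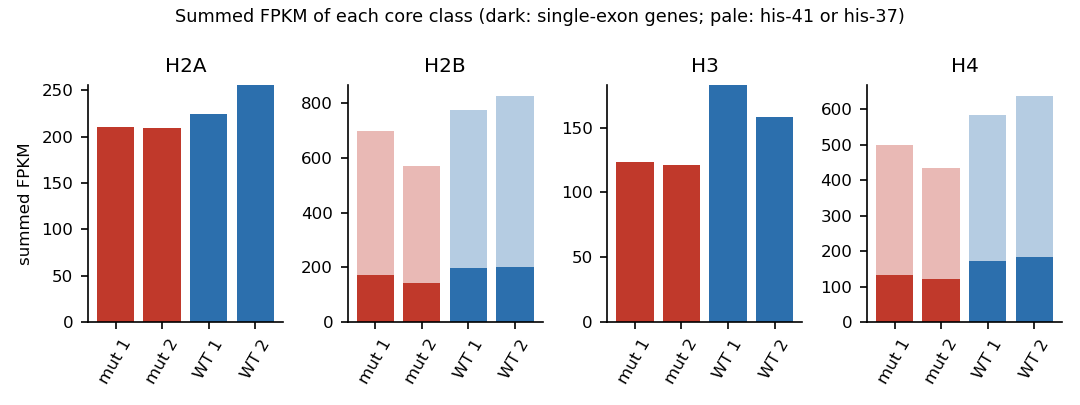
Bars show the summed FPKM of all genes of a core class in each library, the dve-1 mutant (mut, red) left of wild type (WT, blue), with vertical axes starting at 0 and differing between panels. Dark parts are single-exon genes and pale parts are his-41 (H2B) or his-37 (H4); the mutant sums lie below the wild type sums in each of the 4 classes.

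Variant and linker genes had a median log2 fold change of -0.13 over 7 genes. Of these, 6 were lower by sign and 4 lower without overlap, where 16.2% of all tested genes were lower without overlap. Among the 4, his-69 passed the filter on low values only through the wild type libraries. With at least 1 FPKM in all 4 libraries, which leaves his-69 out, the median was -0.0958. The median of all 7 was -0.25 when either mutant library was left out and -0.04 with quantile normalization. his-72, his-71 and his-74 encode H3.3-type proteins of 136 residues, and they differed little between genotypes. his-72 stood at 615 and 505 FPKM in the mutant, against 616 and 551 FPKM in wild type, and all of it was on 1 of its 2 accessions, the other being listed at 0. his-71 stood at 349 and 294 FPKM in the mutant, against 350.4 and 349 FPKM in wild type, with a log2 fold change of -0.13 (95% interval -0.54 to 0.29). It counts among the 4 by a narrow margin, 348.5 FPKM in mutant replicate 1 against 348.8 FPKM in wild type replicate 2. his-74 stood at 228 and 302 FPKM in the mutant, against 296 and 254 FPKM in wild type. The log2 fold changes of his-72 and his-74, both -0.06, changed sign when single libraries were left out.

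his-70 and his-69 lie side by side on chromosome III and encode shorter H3.3-related proteins, of 134 and 127 residues. his-70 stood at 68.5 and 87.2 FPKM in the mutant, against 104 and 100.3 FPKM in wild type, about 249.1 and 310.2 fragments in the mutant and 388.3 and 388.2 in wild type. The genotypes did not overlap, and limma gave a log2 fold change of -0.40 (SE 0.18) with an adjusted p of 0.9995. his-69 stood at 0.54 and 0.785 FPKM in the mutant, against 1.93 and 1.66 FPKM in wild type, at most 6.5 fragments in a library. It passed the filter on low values only through the wild type libraries, so its lower value in the mutant is no support for a shift of the class.

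his-35, the H2A variant gene of the his-41 cluster, stood at 457 and 430 FPKM in the mutant, against 541 and 550 FPKM in wild type. Its log2 fold change of -0.30 (SE 0.12, limma adjusted p = 0.9995) was close to those of his-41 and his-37, and both mutant libraries lay below both wild type libraries in all 3 genes of the cluster. With median-centring, his-41 and his-37 overlapped between genotypes and his-35 did not. his-24, the linker histone H1 gene, read 156 and 87.7 FPKM in the mutant, against 129 and 88.8 FPKM in wild type. Replicates 1 of both genotypes were high and replicates 2 low, and the log2 fold change of 0.13 turned to -0.29 without mutant replicate 1 and to -0.14 without wild type replicate 2. The non-coding genes M163.16 and M163.19 overlap an exon of his-24 on the other strand. his-39 read 22.2 and 11.5 FPKM in the mutant, against 23.8 and 25.7 FPKM in wild type.

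Position in the genome was not used to choose the genes. Members closer than 100000 bases to each other were put in the same cluster, which gave 15 clusters or lone genes. On chromosome V, all 22 tested value groups were lower by sign and 20 had genotypes that did not overlap, with a median log2 fold change of -0.48. The exceptions to separation there were his-4 and his-74. On chromosome IV, 10 of 14 groups were lower by sign, 4 were lower without overlap and 1 was higher without overlap, with a median of -0.14. For all tested genes of chromosomes V and IV, 17.2% and 16.1% were lower without overlap, and the median log2 fold changes were -0.02 and -0.04. These counts are of values not centred on library medians. With median-centring, the 31 lower groups of all chromosomes became 20. Most groups that lost their separation lay on chromosome V, with his-19 and his-53, his-37 and his-41 among them. Within chromosome V, the 14 genes of the his-17 to his-54 cluster (8847393 to 8898539) formed 9 value groups, all 9 lower without overlap, with log2 fold changes between -0.68 and -0.30. The 5 genes of the his-5 to his-39 cluster (8532715 to 8536716) were likewise all lower without overlap. In the his-17 to his-54 cluster, mutant replicate 2 was the lowest and wild type replicate 2 the highest library in all 9 groups. Some of its groups were near-copies: his-19 with his-53 differed from his-21 with his-51 in wild type replicate 2 alone. The 9 groups are therefore not 9 separate observations. On chromosome IV, the 6 genes of the his-29 to his-34 cluster (8331044 to 8336340) were low, at most 10.2 FPKM. Its 3 tested groups had log2 fold changes of 0.47 for his-31, which passed the filter through the mutant libraries, 0.30 for his-32, which changed sign when single libraries were left out, and -0.15 for his-29 with his-34. How far copies share fragments within and between clusters was not measured, the split by chromosome was made after the values were seen, and the difference between chromosomes was not tested.

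**Figure D4:**
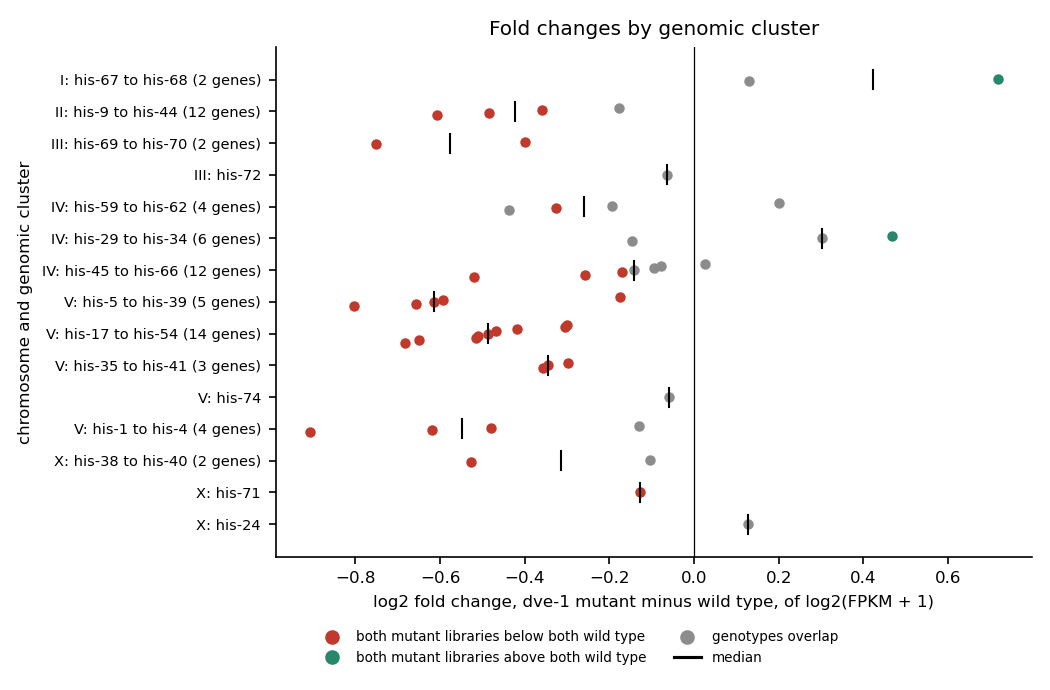
Each point is the difference in mean log2(FPKM + 1) between the dve-1 mutant and wild type for a tested value group, in rows by chromosome and genomic cluster, with the median as a black bar. Red points (both mutant libraries below both wild type libraries) make up 20 of the 22 groups of chromosome V and 4 of the 14 of chromosome IV. Colours are for values not centred on library medians, and centring removed the separation of many chromosome V groups.

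Most core genes were arranged head to head. There were 31 neighbouring pairs transcribed away from each other, 15 of an H2A with an H2B gene, 14 of an H3 with an H4 gene, 1 of an H2A with an H4 gene and 1 of his-35 with his-41. Between the starts of H2A and H2B genes lay 227 to 327 bases, and between those of H3 and H4 genes 234 to 321 bases. Members of a pair could differ in level: his-68 and his-67 averaged 24.2 and 2.23 FPKM over the 4 libraries, whereas his-60 and his-59 averaged 35.8 and 35.5 FPKM. They could also differ in fold change, as for his-62 and his-61, at -0.33 and 0.20 on the log2 scale. In the pair of his-6 and his-5, an H3 and an H4 gene, both log2 fold changes were low, at -0.80 and -0.61.

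Genes that act with histones were set beside them. Histone supply genes, the chaperones and the stem-loop binding protein gene cdl-1, were higher by sign in 13 of 13 tested members with a median log2 fold change of 0.12, and 0 passed the limma threshold. cdl-1 stood at 70.5 and 85.6 FPKM in the mutant, against 76.5 and 66.5 FPKM in wild type. The smallest p values of that list belonged to rba-1, a chromatin assembly subunit gene, at 51.3 and 60.6 FPKM in the mutant, against 49.5 and 41.9 FPKM in wild type, and to hmg-4, at 56.4 and 65.99 FPKM in the mutant, against 54.1 and 50.7 FPKM in wild type. DNA replication genes were higher by sign in 23 of 26 tested members, with a median of 0.13 and 0 past the threshold. Their summed FPKM was 980.5 and 1389 in the mutant, against 1156 and 999.1 in wild type, so the genotypes overlapped. The medians of these lists turned to -0.02 and -0.12 without mutant replicate 2, and that of the replication genes was -0.0042 without wild type replicate 2. For the single-exon core histone genes the median was -0.33 over 39 value groups, and between -0.45 and -0.26 over the 4 fits that left out 1 library. The smallest p values of the replication list were those of mcm-6, at 15.2 and 23.3 FPKM in the mutant, against 15.7 and 14.7 FPKM in wild type, and of pole-2, at 22.6 and 29.7 FPKM in the mutant, against 23.999 and 20.2 FPKM in wild type. The CSR-1 small RNA pathway, known in worms for acting on core histone mRNAs, had a median of -0.0036 over 4 tested members, 0 of them past the threshold. Its sign turned with single libraries, as it was 0.10 when wild type replicate 1 was left out and -0.12 when replicate 2 was. csr-1 itself stood at 59.8 and 75.5 FPKM in the mutant, against 71.3 and 69.7 FPKM in wild type, and ekl-1 at 28.2 and 23.3 FPKM in the mutant, against 25.9 and 24.4 FPKM in wild type.

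Other genes with a histone fold or a linker histone domain had 7 of 9 tested members higher by sign, a median of 0.11 and 0 past the threshold. htz-1, which encodes the variant H2A.Z, stood at 796.5 and 874 FPKM in the mutant, against 796.1 and 635 FPKM in wild type. hil-8, a linker histone-like gene, had the smallest p of the list, at 2.42 and 1.57 FPKM in the mutant, against 3.61 and 4.12 FPKM in wild type. hcp-3, the centromeric H3 gene, read 52.97 and 87.4 FPKM in the mutant, against 77.4 and 50.98 FPKM in wild type. The median of this list was -0.21 without mutant replicate 2.

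**Figure D5:**
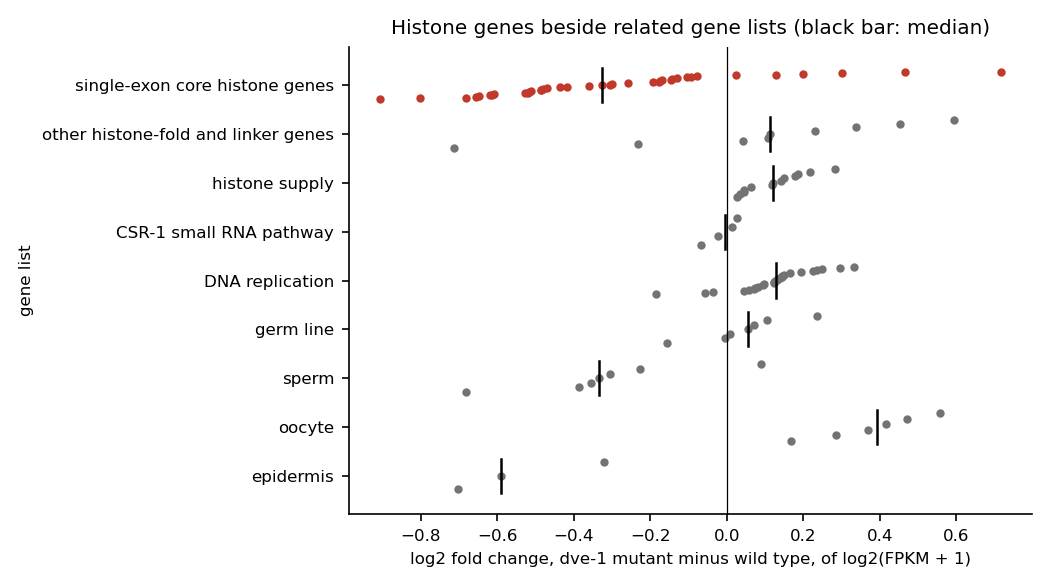
Each point is the difference in mean log2(FPKM + 1) between the dve-1 mutant and wild type for a tested gene or value group listed above 0 in all 4 libraries, in rows by gene list, and black bars are medians. The median of the 39 single-exon core histone groups is -0.33, as is that of the 7 sperm genes. Those of epidermis and oocyte genes are -0.59 and 0.39, and those of histone supply and DNA replication genes 0.12 and 0.13. The sperm median turned without mutant replicate 1, and those of oocyte, histone supply and DNA replication genes without mutant replicate 2.

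Libraries also differed in tissue and germ line markers. The summed FPKM of 8 germ line genes was 444 and 553 in the mutant, against 538 and 441 in wild type. The sum of 7 matched sperm genes was 811 and 1906 FPKM in the mutant, against 1888 and 1419 FPKM in wild type. Of these genes, 6 were lower by sign, and their median log2 fold change of -0.33 was 0.27 without mutant replicate 1. The sum of 6 oocyte genes was 90.8 and 269.7 FPKM in the mutant, against 139.6 and 104.3 FPKM in wild type. All 6 were higher by sign, and their median of 0.39 was -0.36 without mutant replicate 2. All 3 epidermis markers were lower without overlap (summed FPKM 878 and 743 in the mutant, against 1082 and 1169 in wild type). All 4 intestine markers were higher by sign (1578 and 1136 FPKM in the mutant, against 896.9 and 979 FPKM in wild type), and act-5 and ifb-2 higher without overlap. Over all tested genes, 16.2% were lower and 11.9% higher without overlap. Both pharynx markers, myo-1 and myo-2, were higher by sign, with a summed FPKM of 208 and 158.3 in the mutant, against 119.6 and 157.7 in wild type. Of the pair, myo-2 was higher without overlap and myo-1 overlapped. The GABA neuron gene unc-25 stood at 37.4 and 34.8 FPKM in the mutant, against 46.2 and 46.1 FPKM in wild type. Mutant values of the neuron gene rab-3 were a listed 0 and 4.29 FPKM, and wild type values were 4.48 and 9.72 FPKM. Both neuron genes were lower without overlap, rab-3 by a narrow margin. The other listed neuron genes, snb-1 and unc-17, were not tested. The body wall muscle genes unc-54 and myo-3 overlapped between genotypes. pgl-1, among the 8 germ line genes summed above, read 10.4 and 11.9 FPKM in the mutant, against listed values of 0 in wild type. It passed the filter on low values only through the mutant libraries. The part of these differences in the histone values was not tested.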

How the data were processed

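Per the labels, total RNA of whole larvae was sequenced after standard library preparation, and TopHat2, Cufflinks and genome build ce11 appear in the submitters' processing notes. The table the authors deposited holds 1 value per transcript accession and library, read as FPKM because Cufflinks is listed and the values are not whole. Its header names no unit. Gene symbols came from RefSeq (WBcel235, the same assembly as ce11), by accession without its version (47633 of 52491, 90.7%), and FPKM were summed per gene. Unmatched accessions held 22.4% to 24.1% of summed FPKM. Gene models came from Ensembl release 115. Classes follow the established nomenclature of worm histone genes and were checked against coding lengths, because the annotation used gives no product names.

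Genotypes were compared by limma 3.58.1 (R 4.3.3, trended prior variance) on log2(FPKM + 1). The two-sided test covered the 14652 genes that reached 1 FPKM in 2 or more libraries, with Benjamini-Hochberg adjustment and a threshold of 0.05. This scale understates changes of low genes. Positive fold changes mean higher in the mutant. The step was also run on simulated data with independent noise and changes larger than those of the histone genes. That run does not show how well changes of their size are found. Fragments behind a value were estimated from steps between low values of other genes of 300 to 450 bases. The step was fitted to these same values so as to bring as many as possible near whole numbers. With it, 39.3% to 48.1% of values lay within 0.05 of a whole number. Chance gives 10% for a fixed step, which is no measure of chance for a fitted step, so the fragment numbers are approximate. Tables were prepared with pandas 2.3.3 in Python 3.11.15.

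Named genes were, per class, the value group with the highest mean, the 2 with the smallest p and that with the highest fold change, with all variant and linker genes, and for other lists the 2 smallest p. Genes named beyond these were chosen after their values were seen. Members and lists were chosen with earlier results of these data known.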

Additional observations from a re-analysis of the deposited data

How the results depend on the processing

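The count of 19 genes past the limma threshold over all genes became 86 without the trend, 10 with a pseudocount of 0.1, 3 with no filter and 9 over single accessions. It was 0 with at least 1 FPKM in all 4 libraries, with protein-coding genes only, with the replicate block and without any 1 library. No histone gene was called in any of these fits, where the smallest adjusted p was 0.486. Replicate numbers are shared between genotypes, but nothing ties same-numbered samples. The differences between replicates correlated at -0.194 across genes, and a crossed pairing, chosen after seeing the data, also called 0 genes. Value groups lower without overlap numbered 20 after median-centring in place of 31, and those higher without overlap numbered 0 in place of 2 with at least 1 FPKM in all 4 libraries, where the filter removed both. The H3 median log2 fold change was -0.44 with quantile normalization and -0.53 with a pseudocount of 0.1, against -0.48. Leaving out 1 library moved the median of H2A to between -0.33 and -0.0419, of H2B to between -0.50 and -0.21 and of H3 to between -0.52 and -0.44. The same fits gave his-24 -0.29 to 0.54, his-32 -0.49 to 1.10, his-61 -0.0587 to 0.46, his-72 -0.21 to 0.0777 and his-74 -0.26 to 0.14, and his-74 read 0.0089 with quantile normalization. Causes of these shifts were not tested. The H4 median, -0.42, was -0.50 with at least 1 FPKM in all 4 libraries and -0.49 with every copy counted, below that of H3 in both. All class medians stayed negative in all fits. Estimated fragments per value of the single-exon core groups had a median of 30, and 40 of 156 values rested on under 20, which limits single genes.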
